A study of Sorghum bicolor with 9 samples.

Results

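The genes described here are the 57 sorghum genes that carry the family label DUF6 in the deposited table of 35281 genes. The genes were chosen by that label, and no count decided on a single gene. The family as a whole was selected on its counts of calls between moderate stress and control, which were already known, so these counts are a description and support nothing. Of the 57 genes 33 had enough reads to be tested and 24 did not.

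DUF6 is the older name of the EamA domain, a repeated bundle of membrane-spanning helices found in the drug/metabolite transporter superfamily. In plants the domain is best known from the MtN21 or UMAMIT family, which includes Arabidopsis exporters of amino acids and the vacuolar auxin transporter WAT1, needed for secondary wall formation in Arabidopsis fibres. The label alone does not tell which substrate a sorghum member carries, or in which membrane it sits, so no member is given a function here and members are ordered by their response.

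Transcripts were measured by RNA sequencing in leaves taken at the stage of 4 leaves from BTx623, a wild-type inbred line of Sorghum bicolor. All plants shared this genotype and differed in their soil, which was normal (control), saline-alkali to a moderate degree (moderate, with 3‰ salt at pH 8.1) or to a severe degree (severe, with 5‰ salt at pH 8.1). Each group had 3 biological replicates, for 9 libraries in all. Salt is given as in the sample titles, and a further tag writes the same digits in percent. For the control soil no salt content or pH was found, and the sources used here do not give how many plants a library holds.

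Total counts ranged from 17792497 to 22449989 per library. A count of 0 in a library allows up to 3 counts, which is 0.1 to 0.286 on the scale used below, CPM, counts scaled to the library total after TMM normalisation between libraries. Such limits and all counting intervals cover counting error only. The normalisation factors were 0.512, 0.858 and 0.973 in the severe libraries, 0.904 to 1.02 in control and 1.33 to 1.41 in moderate, so severe replicate 1 stood apart. Values are CPM, group means are ± SD (n = 3 libraries), and log2 changes and adjusted p come from edgeR (quasi-likelihood test, Benjamini-Hochberg adjustment over all 22356 tested genes), with a threshold of 0.05. The standard error (SE) of a log2 change was derived from that change and its p-value, so it restates the p-value. None of the 7 leaf marker labels searched for occurs in the table, so the leaf label was not checked against markers. In whole leaves, fewer cells of a type and less RNA per cell cannot be told apart.

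The transcripts of the family came mostly from a few members, and which members these were differed between the groups. For levels compared between genes, the deposited FPKM (fragments scaled for gene length and by a factor for each library) were used. That factor did not follow the library totals. The family held 7194 of 20543646 counts in severe replicate 1 and 17952 of 17966323 in moderate replicate 1. Its summed FPKM was nevertheless higher in the former, at 239 against 212. The length in FPKM is the genomic span with introns for all 57 members, so a gene with long introns reads too low. Summed over the 57 genes, FPKM reached 210.7 ± 2.46 in control, 209.9 ± 2.1 in moderate and 157 ± 81.4 in severe. The 3 severe libraries read 239, 157 and 76, so 1 of them lay above and both others below all control and moderate libraries. Summed in normalised CPM, the severe libraries read 685, 512 and 262, control 694 to 706 and moderate 730 to 745. All 3 severe libraries were then below the others. The comparison of family sums between libraries thus depends on the scaling.

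Sobic.010G258300 (chromosome 10, 59571819 to 59575164) had the highest mean FPKM of the family. Control libraries drew 15.7 to 23.8% of the family's FPKM from it, moderate libraries 10.3 to 14.6% and severe libraries 50.7 to 63.1%. This share is taken within a library and does not depend on scaling between libraries. Sobic.001G121100 (chromosome 1, 9416143 to 9419471) held 16.3 to 21.2% in control, 11.3 to 12.4% in moderate and 0.207 to 2.22% in severe. Sobic.002G207400 (chromosome 2, 59911475 to 59914033) held 14.5 to 21.2% in control, 2.82 to 4.31% in moderate and 3.34 to 6.55% in severe. Sobic.002G207700 took 6.99 to 8.77% in control, 15 to 17.9% in moderate and 0.1 to 0.898% in severe. In control the largest shares were thus held by 3 genes at similar levels, with the rest of the pool spread over other members. Sobic.002G207700 led in moderate leaves, and in severe leaves a single gene held more than all others together.

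**Figure D1:**
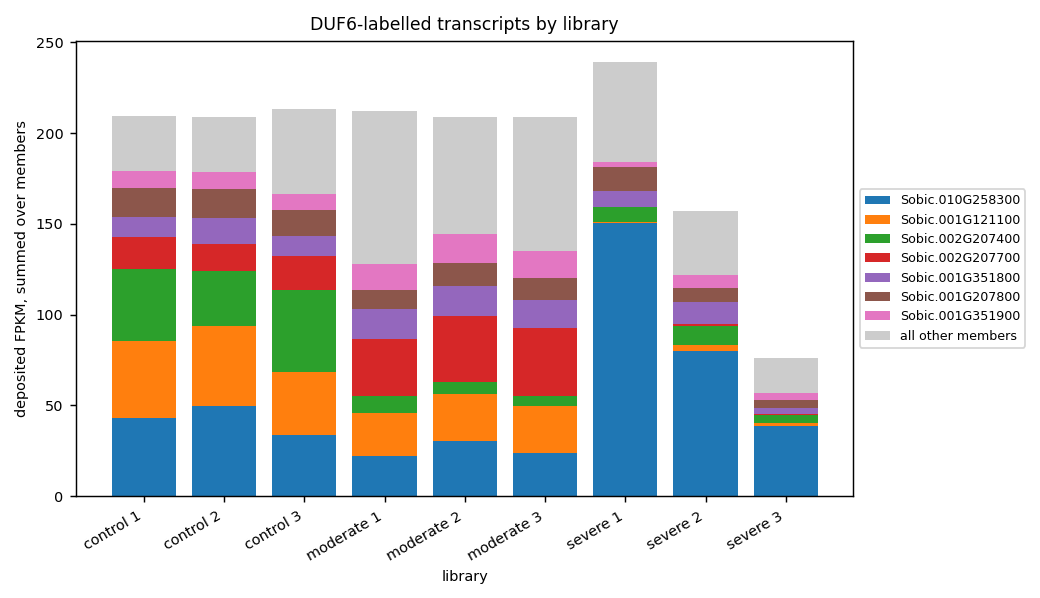
Deposited FPKM summed over the 57 DUF6 genes (vertical axis) in each of the 9 libraries (horizontal axis), with the 7 genes of highest mean FPKM in colour and all others in grey. The sum is 208.6 to 213.5 in the control and moderate libraries, and Sobic.010G258300 fills 50.7 to 63.1% of each severe bar. Bar heights depend on the scaling between libraries in the deposited FPKM.

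Moderate stress against control asked which of these transcripts differed in soil of 3‰ salt. Of the 33 tested genes 7 were higher, 1 was lower and 25 did not pass the test. Among all 22356 tested genes 8.94% were called higher and 8.17% lower in this comparison, and the median log2 change was 0.90 over the DUF6 genes and 0.01 over all genes. Nothing is read from these counts, since the family was taken up for them. The filter also bears on them, because 5 of the 33 genes reached its cutoff of 0.487 CPM on the unscaled total only in moderate libraries. The number called higher was 4 without control replicate 1 or 2 or moderate replicate 1 or 3, where 3 to 4.17% of all genes were called higher. It was 13 (3 lower) without severe replicate 1, where 16% of all genes were called higher and 16.1% lower, and 16 (4 lower) in a fit of the 6 control and moderate libraries alone, where 22.8% of all genes were called higher and 22.2% lower.

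Transcripts of 2 genes were nearly absent from control leaves and present in all moderate ones. Sobic.002G322900 (chromosome 2, 69418368 to 69421098) read 0, 0 and 0.0505 CPM in the control libraries, 11.9, 3.83 and 10 in moderate and 0.857, 2.62 and 0.579 in severe. The moderate libraries lay above the severe ones, and these above control. Its 1 control count against 700 moderate counts gave a ratio of 488 (95% counting interval 87.3 to 19307), with adjusted p = 0.00222 in edgeR's test. This gene passed the filter only with its moderate libraries, since 2 severe and 0 control libraries reached the cutoff. Its tests are therefore a description. The fitted log2 change of 8.54 (SE 1.98) became 10.50 without control replicate 3, which holds that single count.

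The other, Sobic.009G136100 (chromosome 9, 49161977 to 49164259), read 0, 0.152 and 0.101 CPM in control, 6.06, 10.6 and 13.9 in moderate and 0.286, 1.07 and 0.289 in severe. In CPM no group overlapped another. Severe replicate 1 and control replicate 2 held 3 counts each, so severe and control were kept apart there by the scaling alone. It rose by 6.81 (SE 1.58) on the log2 scale in moderate leaves, with adjusted p = 0.00222 in edgeR's test, and by 7.48 without control replicate 2. Sobic.009G136100 too passed the filter only with its moderate libraries, with 1 severe and 0 control libraries at the cutoff. Its tests are likewise a description.

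Sobic.009G006400 (chromosome 9, 556702 to 559878) was a low transcript that was highest in moderate leaves, and it is among the 5 genes that reached the filter's cutoff only there, so its test was open only to a gene high in moderate. Its values were 0.0529, 0.203 and 0.152 CPM in control, 2.61, 2.05 and 1.94 in moderate and 0.0952, 0.214 and 0.0579 in severe. Control and severe libraries overlapped at or near the level that 3 counts give, and each moderate library held 58 to 63 counts. The rise over control was 3.95 (SE 0.99) on the log2 scale, with adjusted p = 0.00379 in edgeR's test.

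Sobic.006G239300 (chromosome 6, 57990555 to 57994242) rose at both stress levels. It read 2.86, 2.43 and 3.44 CPM in control, 13.2, 8.61 and 10.8 in moderate and 105, 50.5 and 45.7 in severe, with no overlap between any groups. The change was 1.90 (SE 0.54) on the log2 scale from control to moderate, with adjusted p = 0.00873 in edgeR's test. From control to severe it was 4.52 (SE 0.91), with adjusted p = 3.13e-05 in edgeR's test, and from moderate to severe 2.62 (SE 0.63), with adjusted p = 0.000308 in edgeR's test. All 3 calls held under each of the 15 alternatives run.

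Sobic.002G207400 was the 1 gene called lower. It read 106, 80.7 and 118 CPM in control, 24, 16.5 and 15.6 in moderate and 17.7, 25.9 and 12.6 in severe. Both stressed groups lay below every control library and overlapped each other. Its fall from control was -2.44 (SE 0.58) on the log2 scale in moderate leaves, with adjusted p = 0.00258 in edgeR's test, and -2.44 (SE 0.58) in severe, with adjusted p = 0.000202 in edgeR's test. Both group means were 18.7 CPM, with SDs of 4.58 and 6.75.

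The calls of the other 3 genes called higher were lost in several fits with 1 library left out, while their rises stayed positive. Without 1 control or moderate library 3 to 5.09% of all genes were called higher, against 8.94% with all 9 libraries. Sobic.009G006600 (chromosome 9, 582214 to 584551) read 0.529, 1.62 and 2.53 CPM in control, 9.83, 7.33 and 9.96 in moderate and 0.19, 0 and 0.116 in severe. Its rise of 2.53 (SE 0.84) on the log2 scale had adjusted p = 0.0233 in edgeR's test, and the call was lost without control replicate 1 or 2 or any 1 moderate library, with changes of 2.12 to 2.67 and adjusted p = 0.057 to 0.0904 in edgeR's test. Sobic.007G166900 (chromosome 7, 60187173 to 60190004) read 0.0529, 0.152 and 0.303 CPM in control, 2.12, 1.04 and 1.47 in moderate and 0, 0.0534 and 0.174 in severe. Like Sobic.010G006700 below, it reached the filter's cutoff only in moderate libraries. It rose by 3.13 (SE 0.99) on the log2 scale with adjusted p = 0.0179 in edgeR's test. Without control replicate 3 the rise was 3.82 and still called, and without control replicate 1 or 2 or moderate replicate 1 or 3 the call was lost, at 2.72 to 3.18. For both genes all moderate libraries lay above all control and severe libraries.

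The last of these, Sobic.010G006700 (chromosome 10, 547734 to 553715), read 0.106, 0.101 and 0.404 CPM in control and 2.82, 0.706 and 1.3 in moderate. Every severe library was at 0 for this gene, which allows up to 0.16 to 0.286 CPM and so does not place each severe library below control. The rise of 2.93 (SE 1.09) on the log2 scale in moderate leaves passed narrowly, with adjusted p = 0.045 in edgeR's test. It did not pass without any 1 control or moderate library, at 2.28 (without moderate replicate 1) to 3.87 (without control replicate 3), nor without the filter on low counts (adjusted p = 0.0542 in edgeR's test) or with replicate number as a block (adjusted p = 0.06 in edgeR's test).

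**Figure D2:**
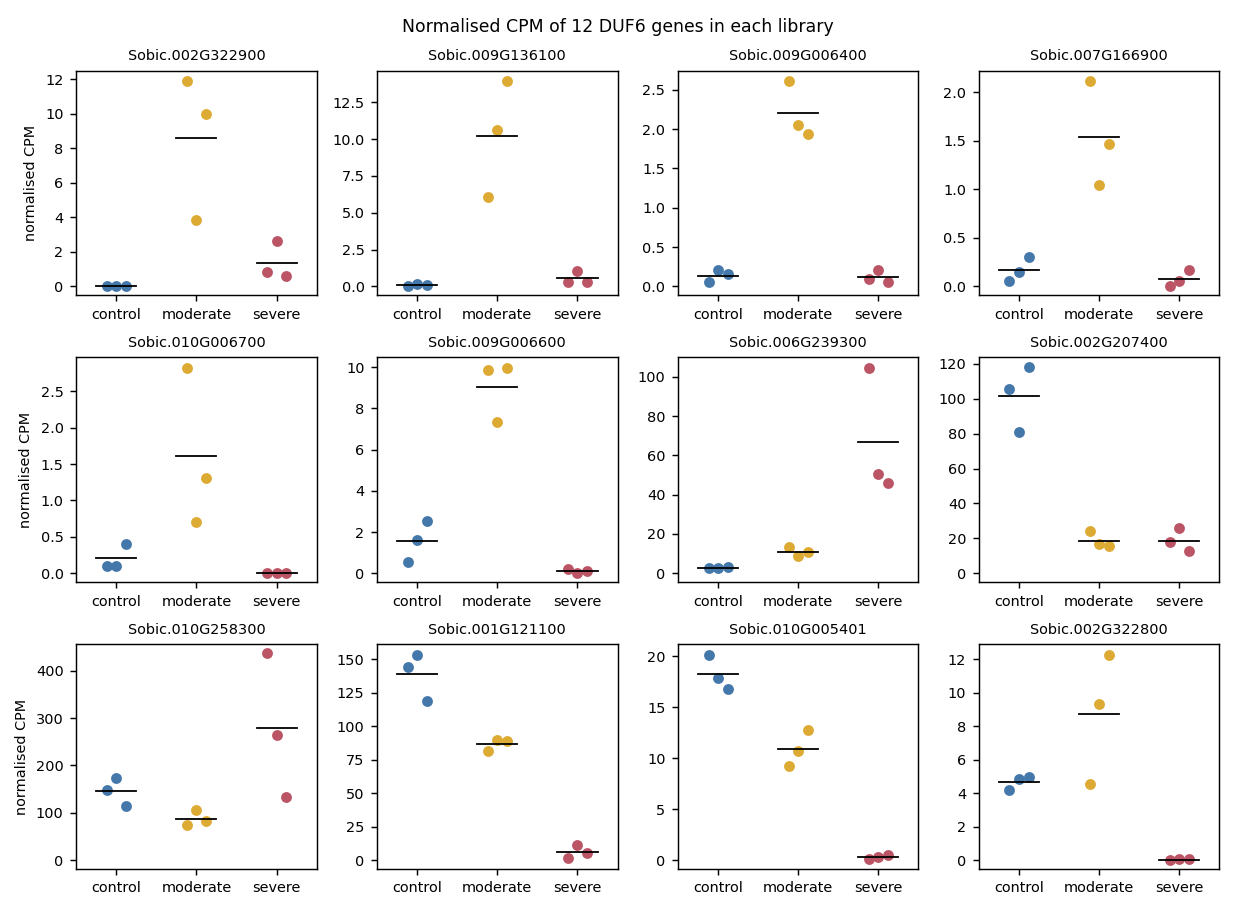
Normalised CPM (vertical axes, linear, each panel with its own range) of 12 DUF6 genes in the 3 control, 3 moderate and 3 severe libraries. Points are libraries and lines are group means. The moderate libraries are the highest of the 9 in the panels of Sobic.002G322900, Sobic.009G136100, Sobic.009G006400, Sobic.007G166900, Sobic.010G006700 and Sobic.009G006600, while Sobic.006G239300 is highest in severe.

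Among the 25 genes that did not pass, fitted log2 changes went from -2.58 to 3.89. Sobic.010G031300 and Sobic.010G080100, singled out after their values were seen, had large changes without a call in the fit of all 9 libraries. Sobic.010G031300 read 10.8, 17 and 15.7 CPM in control and 101, 68.6 and 57.7 in moderate, groups that did not overlap. The log2 change was 2.38 (SE 1.08), with adjusted p = 0.102 in edgeR's test, in a fit whose spread for this gene includes severe libraries at 1.33, 23.1 and 1.68 CPM. The change was called without severe replicate 1 or 2 (adjusted p = 0.037 and 0.00244 in edgeR's test), with the 6 control and moderate libraries alone (adjusted p = 0.00057 in edgeR's test) and by DESeq2 (adjusted p = 0.032), at 2.38 to 2.40 in these fits, and not in the other 11 alternatives. In the authors' deposited table its adjusted p-value for this comparison is 2.89e-16. Sobic.010G080100 read 3.81, 2.94 and 18 CPM in control and 38.6, 34.6 and 30.8 in moderate. Its change of 2.07 (SE 1.08) was 3.36 without control replicate 3, the library at 18 CPM, and was called only with the 6 control and moderate libraries alone among the 15 alternatives (adjusted p = 0.0331 in edgeR's test).

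The comparison of severe leaves with control concerned soil of 5‰ salt. Of the 33 tested genes 4 were higher, 17 were lower and 12 did not pass. Among all tested genes 31.6% were called higher and 34.9% lower, against 12.1% and 51.5% of the DUF6 genes. The median log2 change was -1.17 over the DUF6 genes (-1.07 with the genes absent from severe libraries set at their bounds) and -0.19 over all genes. It was -2.23 over the DUF6 genes without severe replicate 2 and -1.92 without severe replicate 3. Of the 33 genes 12 did not pass the filter with only the control and severe libraries, which left 21 tested, 1 of them called higher and 8 lower, where 30.4% and 30.1% of all genes were called. With 1 severe library left out, 3 to 5 genes were higher and 15 to 19 lower, where 30.8 to 31.8% and 32.7 to 35.1% of all genes were called.

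Apart from Sobic.006G239300, the genes higher in severe leaves were at low levels. None of these low genes passed the filter with only the control and severe libraries, so their tests here are a description. For Sobic.002G322900, 68 severe counts against 1 control count gave a ratio of 85.4 (95% counting interval 14.8 to 3421), with adjusted p = 0.00128 in edgeR's test. Its fitted log2 change was 5.90 (SE 1.66), or 7.85 without control replicate 3 and 4.94 without severe replicate 2. Sobic.009G136100 changed by 2.65 (SE 1.07) on the log2 scale, with adjusted p = 0.0225 in edgeR's test. That call was lost without severe replicate 2 (1.68), control replicate 1 (2.10) or control replicate 3 (2.77) and with total-count scaling, and the change was 3.30 without control replicate 2.

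Sobic.009G181700 (chromosome 9, 53557842 to 53560009) rested on a single severe library. It read 0, 0 and 0.0505 CPM in control, 0.373, 0.37 and 0.267 in moderate and 2.19, 0.267 and 0 in severe, so severe and control overlapped. The 28 counts over severe against 1 over control gave a ratio of 35.2 (95% counting interval 5.81 to 1437) and adjusted p = 0.0238 in edgeR's test. The fitted log2 change of 5.05 (SE 2.06) was 2.64 without severe replicate 1, 5.67 without severe replicate 3 and 4.58 to 6.999 without a control library (the highest without control replicate 3), and only the fit without severe replicate 3 among these kept the call.

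Of the 4 genes with the highest mean FPKM, 3 were called lower, all but Sobic.010G258300. Sobic.001G121100 read 144, 154 and 119 CPM in control, 81.7, 89.6 and 88.9 in moderate and 1.43, 11.4 and 5.38 in severe. Each group lay below the one before. The fall from control to severe was -4.49 (SE 1.08) on the log2 scale, with adjusted p = 0.000234 in edgeR's test, and -5.32 without severe replicate 2. From control to moderate the change of -0.68 (SE 0.56) did not pass with all 9 libraries (adjusted p = 0.411 in edgeR's test). It was called in 1 of the 15 alternatives, the fit of the control and moderate libraries alone (adjusted p = 0.00556 in edgeR's test).

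Sobic.010G005401 (chromosome 10, 448862 to 451672) had a similar course at a lower level. Control libraries read 20.2, 17.9 and 16.8 CPM, moderate 9.25, 10.7 and 12.8 and severe 0.0952, 0.32 and 0.463. It fell by 5.85 (SE 1.11) on the log2 scale from control to severe, with adjusted p = 1.78e-05 in edgeR's test. The change from control to moderate, -0.74 (SE 0.37), did not pass with all 9 libraries (adjusted p = 0.142 in edgeR's test). It was called in 3 of the 15 alternatives. These were DESeq2 (adjusted p = 0.0158), the fit without severe replicate 1 and that of the control and moderate libraries alone (adjusted p = 0.0208 and 0.00938 in edgeR's test). In the authors' deposited table its adjusted p-value for this comparison is 0.00163.

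Sobic.002G322800 (chromosome 2, 69400274 to 69405999) read 4.18, 4.87 and 4.95 CPM in control, 4.56, 9.32 and 12.3 in moderate and 0, 0.0534 and 0.0579 in severe. Over the libraries this was 273 counts in control, 754 in moderate and 2 in severe. Control exceeded severe by a ratio of 109 (95% counting interval 29.8 to 902), with adjusted p = 5.4e-05 in edgeR's test, and moderate exceeded severe by 209 (57.8 to 1732), with adjusted p = 4.43e-05 in edgeR's test.

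No read in any severe library was assigned to Sobic.010G005900, Sobic.010G006700, Sobic.010G006800 or Sobic.003G184100. Of these, Sobic.010G005900, Sobic.010G006700 and Sobic.003G184100 reached the filter's cutoff only in moderate libraries. Sobic.010G006800 reached it in 2 control and 3 moderate libraries. None of these genes passed the filter with only the control and severe libraries. Their tests were thus open only through the moderate libraries, and their values against severe are a description. Sobic.010G006800 (chromosome 10, 553716 to 557552) read 0.159, 0.761 and 0.607 CPM in control and 4.4, 0.908 and 5.82 in moderate. Against 3 counts over the severe group it was at least 7.97-fold higher in control and at least 56.8-fold higher in moderate, with adjusted p = 0.0143 and 0.0016 in edgeR's test. Sobic.010G005900 (chromosome 10, 482011 to 487591) read 0.423, 0.254 and 0.152 CPM in control and 1.04, 0.908 and 0.535 in moderate, at least 4.25-fold and at least 12.6-fold above severe (adjusted p = 0.00536 and 0.00114 in edgeR's test). Sobic.010G006700 was at least 3.19-fold higher in control than in severe, with adjusted p = 0.0305 in edgeR's test, a call lost without control replicate 3 or severe replicate 2 or 3 (adjusted p = 0.066 to 0.0779 in edgeR's test), and with a fitted log2 change of -5.14 that was -4.22 without control replicate 3. Sobic.003G184100, named after its values were seen, was at least 1.33-fold higher in control, which did not pass (adjusted p = 0.0838 in edgeR's test), and at least 10.4-fold higher in moderate (adjusted p = 0.00423 in edgeR's test).

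Not all abundant members fell. Sobic.010G258300 read 149, 173 and 115 CPM in control, 75.1, 106 and 82.6 in moderate and 438, 263 and 134 in severe. Severe and control overlapped, moderate lay below both, and the severe libraries spanned a more than 3-fold range. The change from control to severe, 0.93 (SE 0.46) on the log2 scale, did not pass (adjusted p = 0.062 in edgeR's test). From moderate to severe it rose by 1.66 (SE 0.55), with adjusted p = 0.00596 in edgeR's test, a call lost with total counts as the only scaling (0.69, adjusted p = 0.0667).

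**Figure D3:**
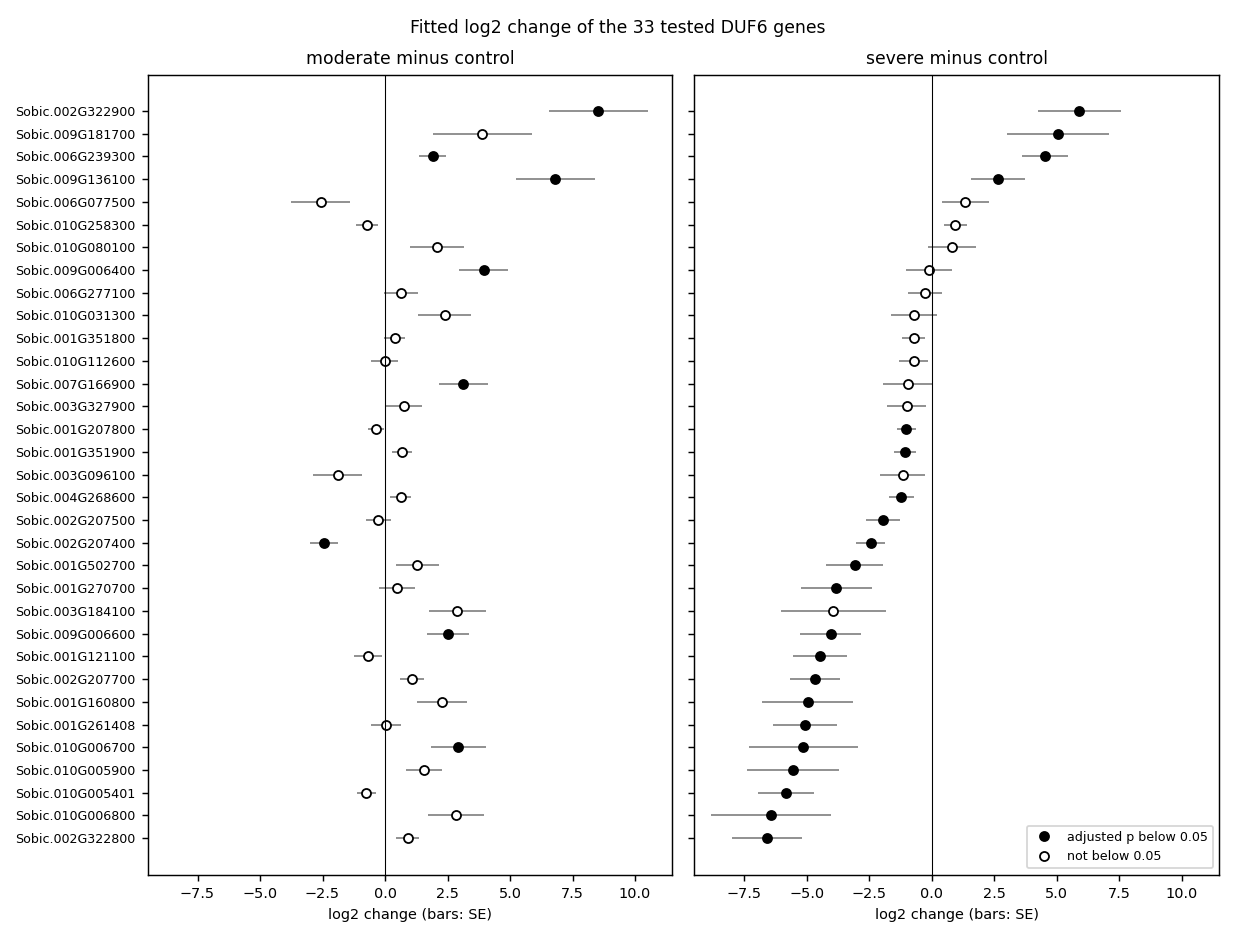
Fitted log2 change (horizontal axes, bars are SE) of the 33 tested DUF6 genes from control to moderate (left) and to severe (right), ordered by the severe change, with filled points where the adjusted p was below 0.05. Both panels use the same 3 control libraries. Of the filled points, 7 lie right and 1 left of 0 in the left panel, and 4 right and 17 left in the right panel.

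Severe against moderate stress asked how leaves differed between the salt levels. Of the 33 genes 3 were higher, 22 were lower and 8 did not pass. Among all tested genes 29.6% were called higher and 33.6% lower, against 9.09% and 66.7% of the DUF6 genes, and the median log2 change was -3.10 over the DUF6 genes and -0.20 over all genes. The DUF6 median was -3.76 without severe replicate 2, -1.83 without the filter on low counts, -1.64 with DESeq2 and -3.93 with replicate number as a block. This comparison uses the moderate libraries on which the family was taken up, so a low severe value and a high moderate value enter together. In 22 of the 33 tested genes the moderate mean was the highest of the 3 group means, in 7 the control mean and in 4 the severe mean, against 27.5%, 32.3% and 40.2% of all tested genes. Nothing is read from the 22, since the family was selected on its moderate values and 12 of the 33 did not pass the filter without the moderate libraries. Scaled by total counts alone, the median of all genes was 0.49 for moderate against control, -0.49 for severe against control and -0.98 for severe against moderate, and the DUF6 medians were 1.37, -1.48 and -3.80.

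Besides Sobic.006G239300 and Sobic.010G258300, Sobic.006G077500 (chromosome 6, 44362780 to 44364827) was higher in severe than in moderate leaves. It read 0.794, 0.659 and 0.101 CPM in control, 0, 0.202 and 0.0334 in moderate and 1.62, 0.694 and 1.68 in severe. Severe and moderate did not overlap, and control overlapped moderate and severe. The log2 change was 3.92 (SE 1.33), with adjusted p = 0.00739 in edgeR's test, and 5.73 without moderate replicate 2.

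A gene with its highest mean in moderate leaves is lower in severe by construction, so the following falls are a description. Sobic.001G160800 (chromosome 1, 13227602 to 13232411) read 0.423, 0.254 and 1.87 CPM in control, 6.97, 1.18 and 4.28 in moderate and 0, 0 and 0.0579 in severe. Its 331 moderate counts and 1 severe count gave a ratio of 184 (95% counting interval 32.8 to 7284), with adjusted p = 0.0014 in edgeR's test. The fitted log2 change of -7.24 (SE 2.03) was -6.65 without moderate replicate 1, -6.66 without severe replicate 2 and -9.47 without severe replicate 3, and against control -4.97, or -3.67 without control replicate 3 and -7.19 without severe replicate 3. The fall was -4.15 (SE 1.11) for Sobic.009G136100 and -2.64 (SE 0.90) for Sobic.002G322900, which were -5.13 and -3.60 without severe replicate 2. For Sobic.009G006400 it was -4.06 (SE 1.02), or -4.81 without severe replicate 2. On the log2 scale Sobic.009G006600 changed by -6.57 (SE 1.55), which was -5.90 without severe replicate 2 and -7.21 without severe replicate 1. Sobic.007G166900 changed by -4.10 (SE 1.19), or -5.27 without severe replicate 3.

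Many members lie side by side. With a gap of at most 50000 bases between neighbours, 26 of the 57 genes fell into 10 runs, and in 10 of the 16 neighbouring pairs no other gene of the table lay between them. Neighbours did not always move together. Reads of adjacent similar genes may be split by the counting, whose treatment of multiple matches no label states, so values of neighbours are uncertain in that respect. The genes of these runs outside the rule for named genes were picked after their values were seen.

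On chromosome 2, 3 members on the minus strand lie within 59911475 to 59924304, the first 153 bases from the second. Sobic.002G207400 fell in both stressed groups, as given above. Sobic.002G207500 (59914187 to 59918103) read 20.9, 20.8 and 28.6 CPM in control, 16.9, 20.9 and 20.6 in moderate and 2, 11.3 and 4.69 in severe. It fell by 1.95 (SE 0.67) on the log2 scale from control to severe, with adjusted p = 0.00755 in edgeR's test, and its change was -2.79 without severe replicate 2. Sobic.002G207700 (59920638 to 59924304) read 65.1, 55.8 and 70.3 CPM in control, 119, 140 and 143 in moderate and 0.762, 3.9 and 2.6 in severe. Its moderate libraries lay above control without passing the test with all 9 libraries (adjusted p = 0.102 from edgeR, at a log2 change of 1.07 with SE 0.48). The rise was called in 3 of the 15 alternatives. These were DESeq2 (adjusted p = 0.0294), the fit without severe replicate 1 and that of the control and moderate libraries alone (adjusted p = 0.00432 and 0.000962 in edgeR's test). In the authors' deposited table its adjusted p-value for this comparison is 1.98e-09. Sobic.002G207700 fell by 4.68 (SE 1.00) from control to severe, with adjusted p = 6.29e-05 in edgeR's test. Sobic.002G207400 was thus above Sobic.002G207700 in every control library and below it in every moderate one, in CPM and in FPKM shares alike.

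A second pair on chromosome 2, Sobic.002G322800 and Sobic.002G322900, is 12368 bases apart with no gene of the table between. In FPKM, which allows for their different spans, the first averaged 0.79 and the second 0.00602 in control. In moderate leaves they averaged 1.47 and 3.04, and in severe 0.00639 and 0.512. The first was the higher in every control library and the second in every severe library, while in moderate the order differed between libraries.

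On chromosome 9, 5 members on the minus strand lie within 545104 to 584551 with no other gene of the table between them. Of these, Sobic.009G006400 and Sobic.009G006600 rose in moderate leaves, Sobic.009G006500 had no count in any library, and Sobic.009G006200 and Sobic.009G006300 had 3 and 30 counts over all libraries and were not tested. Sobic.009G006300 held 10 counts in control, 19 in moderate and 1 in severe.

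On chromosome 10, Sobic.010G006700 and Sobic.010G006800 abut with no base between them on the plus strand, so reads at their border cannot be assigned with certainty. Both were highest in moderate and at 0 in severe. Sobic.010G005401 and Sobic.010G005900, on the same strand and 30338 bases apart with 3 genes between them, differed in the sign of their change: the first went from 18.3 ± 1.7 CPM in control to 10.9 ± 1.77 in moderate, the second from 0.276 ± 0.137 to 0.827 ± 0.261. Neither change from control to moderate passed with all 9 libraries (adjusted p = 0.142 and 0.108 in edgeR's test). The first was called in 3 and the second in 2 of the 15 alternatives.

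The pair Sobic.001G351800 and Sobic.001G351900 lies on chromosome 1, 1430 bases apart. The first read 31.1, 41 and 32 CPM in control, 46.2, 46.1 and 43.6 in moderate and 21.5, 33.4 and 8.16 in severe. The second read 28.9, 29.3 and 27.1, then 43.1, 49.8 and 45, then 6.67, 21.6 and 12.1. The moderate libraries lay above control in both, with log2 changes of 0.38 (SE 0.43) and 0.69 (SE 0.40) that did not pass with all 9 libraries. The first was called in 1 of the 15 alternatives and the second in 2. With the control and moderate libraries alone, adjusted p was 0.0404 and 0.00169 in edgeR's test. From moderate to severe the changes were -1.11 (SE 0.49) and -1.77 (SE 0.53), with adjusted p = 0.0405 and 0.0025 in edgeR's test. The first of these calls was kept in only 5 of the 15 alternatives. It was lost without any 1 control or moderate library or severe replicate 1. The same held with median-of-ratios (RLE) scaling, with only the 2 groups compared and with DESeq2.

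**Figure D4:**
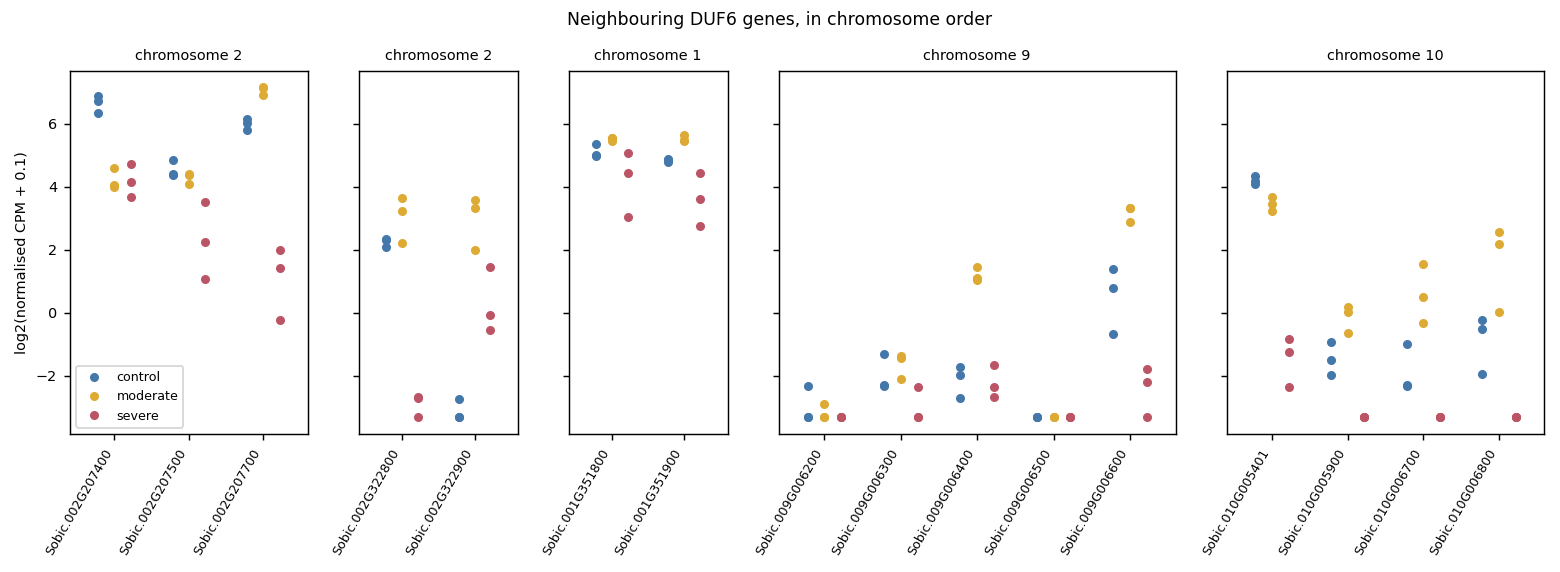
Values of neighbouring DUF6 genes as log2(normalised CPM + 0.1) (vertical axis), each point 1 library, in chromosome order along the horizontal axis, with 1 panel per region. The lowest level in the plot is a count of 0. In the first panel Sobic.002G207400 is highest in control and Sobic.002G207700 in moderate, and in the last panel 3 of 4 genes have every severe library at 0.

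Of the 24 genes that were not tested 11 had no count in any library and 6 had 1 to 5 counts over all 9. The other 7 had 14 to 90, and the highest of these exceeded the 57 counts of Sobic.009G181700, which was tested. Sobic.004G009900, named after its values were seen, held 1, 2 and 0 counts in control, 4, 1 and 0 in moderate and 9, 42 and 18 in severe. The ratio of severe to control was 28.9 (95% counting interval 9.48 to 143). Sobic.004G311000 held 14 counts over control, 67 over moderate and 0 over severe, at least 12.4-fold higher in moderate than in severe. Sobic.010G004200 had 64 of its 90 counts in severe replicate 1, where it read 6.09 CPM.

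Other carriers were counted by labels chosen with earlier results of these data known. Of 12 labels for other families of the drug/metabolite transporter superfamily only DUF803, the label of NIPA-type magnesium transporters, occurs in the table. Of its 11 tested genes 2 were higher and 1 lower in moderate than in control, and 4 and 2 in severe, with median log2 changes of 0.21 and 0.50. Amino acid carriers labelled Aa_trans or AA_permease had 50 tested genes, of which 7 were higher and 6 lower in moderate and 14 and 12 in severe, with medians of 0.51 and -0.47. From moderate to severe 12 of them were higher and 21 lower (median -1.08), and 3 and 1 of the DUF803 genes (median 0.38). These counts stand beside the shares of all genes given above, and differences between families were not tested. The label of auxin efflux carriers, Mem_trans, does not occur in the table.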

How the data were processed

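The deposited table gives raw counts per gene and library, whole numbers without normalisation, and FPKM computed by the authors from the genomic span. It also holds the authors' log2 fold changes and adjusted p-values. Per the submitters' processing notes, HISAT2 2.0.5 and DESeq2 1.20.0 were used. The read counter, genome build and strandedness were not given in those notes or the labels. Positions are those of the table. None of the 57 members matched the RefSeq gene table, so no gene names or sequences are printed.

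Counts were fitted in R 4.3.3 with edgeR 4.0.16 (filterByExpr, TMM, quasi-likelihood F-test, 2-sided, all 9 libraries, 1 mean per group). SE was derived from each log2 change and its p-value by a normal approximation. DESeq2 1.42.0 was an alternative. Where a group had no count, folds were set against 3 counts over the group. Where it had 1 to 3, the ratio has an exact binomial 95% interval. The procedure was tested on simulated data. Changes were placed there only in genes above a CPM limit in control and only in comparisons with control. That test does not cover low members or severe against moderate. Replicate libraries of a group differed beyond counting noise (chi-square over its degrees of freedom was 18.9 to 339).

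The members and lists were chosen with earlier results of these data known. Genes given in full are those called in moderate against control, up to 8 of the largest called rises (4 were called) and the 5 largest falls in severe against control, up to 4 of the largest called rises (3 were called) and the 4 largest falls in severe against moderate, and the 3 with the highest mean FPKM.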

Additional observations from a re-analysis of the deposited data

How the results depend on the processing

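Fits were repeated with RLE factors, total counts, no filter, only the 2 groups compared, replicate number as a block, DESeq2, and each library left out. With only the 2 groups compared, the genes higher and lower in moderate than control were 16 and 4 (7 and 1 with all groups), and in severe than control 1 and 8 (4 and 17 with all groups), with fewer genes passing the filter. DESeq2 called 2 genes lower in moderate than control and 5 higher in severe than moderate (1 and 3 in edgeR), beside 11.6% and 30.9% of all genes, and without the filter 6 were higher in severe than moderate, beside 23.7%. With 1 library left out, the counts were 4 to 13 higher and 1 to 3 lower in moderate than control (where 3 to 16% and 2.99 to 16.1% of all genes were called). They were 3 to 5 and 15 to 19 in severe than control, beside 27.6 to 31.8% and 29.9 to 35.1% of all genes. In severe than moderate they were 3 to 4 and 20 to 24, beside 25.2 to 30% and 26.9 to 33.7%. Of the 7 and 17 genes called in moderate (higher) and severe (lower) against control, DESeq2 called all 7 and all 17. The cause of these differences was not tested.

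Among the 23 genes followed through every alternative, the changes that turned sign were not called with all 9 libraries. Sobic.002G207400 from moderate to severe was -0.81 with total counts, -0.041 without the filter and -0.00181 with only the 2 groups, and -0.32 to 0.26 with 1 library left out. With total counts Sobic.002G207500 from control to moderate was 0.21 and Sobic.009G181700 from moderate to severe -0.013. With 1 library left out Sobic.009G181700 was -1.27 to 1.76, Sobic.009G006400 from control to severe -0.86 to 0.32, and Sobic.010G080100 from control to severe -0.17 to 2.07.

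Same-numbered libraries of different groups correlated at -0.03 to 0.26 in their deviations from group means, above 0.1 in 6 of 9 pairs, against 3 of 18 pairs with different numbers. Same-numbered pairs were more often above 0.1, though not all were, which does not decide whether the numbers pair libraries. The main fit has no block, since nothing in the sources used here says that the numbers pair libraries. With the replicate block 7 genes were higher and 1 lower in moderate than control (beside 8.45% and 7.35% of all genes). In severe than control 4 and 17 were called (beside 30.2% and 35.1%), and in severe than moderate 3 and 22 (beside 28.4% and 33.9%). Of the 7 genes higher in moderate than control, 6 were shared with the fit without the block. Sobic.010G006700 was lost and Sobic.001G160800 gained (2.43, adjusted p = 0.0408 in edgeR's test). The authors' deposited table has 18 members higher and 5 lower for moderate against control, 4 and 15 for severe against control and 6 and 23 for severe against moderate at its adjusted p-value below 0.05, where 18.4% and 17.9%, 27.6% and 26.4%, and 25.7% each of its genes pass. Depth limits the low members: with 3 counts at 0.1 to 0.286 CPM, a fall of a gene near that level could not be seen.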
